A study of Mus musculus with 6 samples.

Results

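The axon guidance ligands and receptors were taken as the probes whose annotated gene symbol names a semaphorin of classes 3 to 7, a plexin, an Eph receptor, an ephrin, a Robo, a Slit, a netrin, an Unc5 gene or a neuropilin. This name rule gave 66 probes for 66 genes, out of 23466 probes in the table. It held 33 ligands and 31 receptors. Unc50 and Unc5cl matched by name only and are neither netrins nor netrin receptors. Of the 66 probes, 63 had a value on all 6 arrays and were tested, and Robo1, Sema4d and Unc5d were not. The arrays measured RNA of cultured neural stem cells (NSC), multipotent progenitors, from brains of C57BL6 mice at postnatal day 0. The cells were labelled homozygous, heterozygous or wild type for Ecrg4, which encodes a small secreted protein, with 2 arrays for each label. All were grown without treatment in DMEM/F12 medium to which bFGF, EGF and heparin were added. The sources used here do not say how the allele was made, or whether the 2 arrays of a label hold RNA of different mice or cultures. The p-values are thus measured against the spread of these 6 arrays alone, and that spread may be technical. The genotype named beside each value below is the label of its arrays.

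Axon guidance molecules steer growth cones, migrating cells and vessels by attraction and repulsion. Ephrins are membrane-bound ligands that signal in both directions with Eph receptor tyrosine kinases, semaphorins act through plexins with neuropilins as co-receptors, Slits act through Robo receptors, and netrins act through Dcc and the Unc5 receptors. In the brain's germinal zones, ephrins and Eph receptors are also known for regulating the proliferation and migration of neural progenitors.

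Values are 1-colour intensities on a linear scale, with a median of 30 on each array. As a background level, the 95th percentile of 663 probes for olfactory receptor genes was used, which lay between 50.5 and 57.6 per array; probes under it are called dim. Ecrg4, the altered gene, read 1.4 and 1.3 in homozygous arrays, 345.5 and 373.9 in heterozygous arrays and 112.9 and 154.9 in wild-type arrays. Its level was thus close to the lowest values on the homozygous arrays, but the heterozygous arrays read higher than the wild-type arrays, against the order of unchanged alleles. Arrays of 1 label correlated at r = 0.9937 for homozygous, 0.9926 for heterozygous and 0.9891 for wild type across tested probes, which are not independent replicates. The correlation of wild-type array 2 was higher with heterozygous array 1 (r = 0.9901) than with the other wild-type array. Of 8 measured stem or progenitor markers, 7 exceeded the background level on all 6 arrays, and Prom1 did not.

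Most guidance genes read low in these cultures. Of the 63 tested member probes, 9 (14.3%) exceeded the background level on all 6 arrays and 46 (73%) on none, against 40.8% and 51.6% of all 20434 tested probes. The 9 were Efna4, Ephb2, Ephb3, Plxnb1, Plxnb2, Plxnb3, Sema3a, Sema4a and Unc50. Arrays of 1 label lay closer for these 9 than for the 46 dim members: the median log2 gap was 0.12 against 0.22 between the homozygous arrays, 0.23 against 0.24 between the heterozygous and 0.15 against 0.37 between the wild-type arrays. Dim members therefore carry more error in the wild-type arrays, with the widest gap for Slit1 (1.4). Since bulk RNA was measured, fewer cells of a type and less RNA per cell cannot be told apart for any gene below.

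Few members passed the test between Ecrg4 labels, which with 2 arrays per label does not show that the others did not differ. Between homozygous and wild type 1 of 63 passed, the ephrin gene Efnb2, which was higher; 0.92% of all probes passed there, 0.431% as higher and 0.489% as lower. Between heterozygous and wild type 1 passed, the ephrin gene Efna1, also higher, with 0.749% of all probes (0.411% higher and 0.338% lower). Between homozygous and heterozygous 3 passed, with Efnb2 and the receptor gene Ephb1 higher and Efna1 lower, and 2.69% of all probes passed (1.26% higher and 1.43% lower). These shares of 1.59%, 1.59% and 4.76% of the members are each a count of 1 to 3 and lie close to the background. The threshold was an adjusted p of 0.05 from limma with Benjamini-Hochberg adjustment over all tested probes. At an unadjusted p under 0.05 there were 12 members (19%, against 19% of all probes) between homozygous and wild type, 8 (12.7%, against 13.5%) between heterozygous and wild type and 13 (20.6%, against 18.2%) between homozygous and heterozygous. Without any single array, no member passed between homozygous and wild type. Without either homozygous or either heterozygous array, none passed between homozygous and heterozygous. Between heterozygous and wild type none passed without any single array other than wild-type array 2, without which 2 did.

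**Figure D1:**
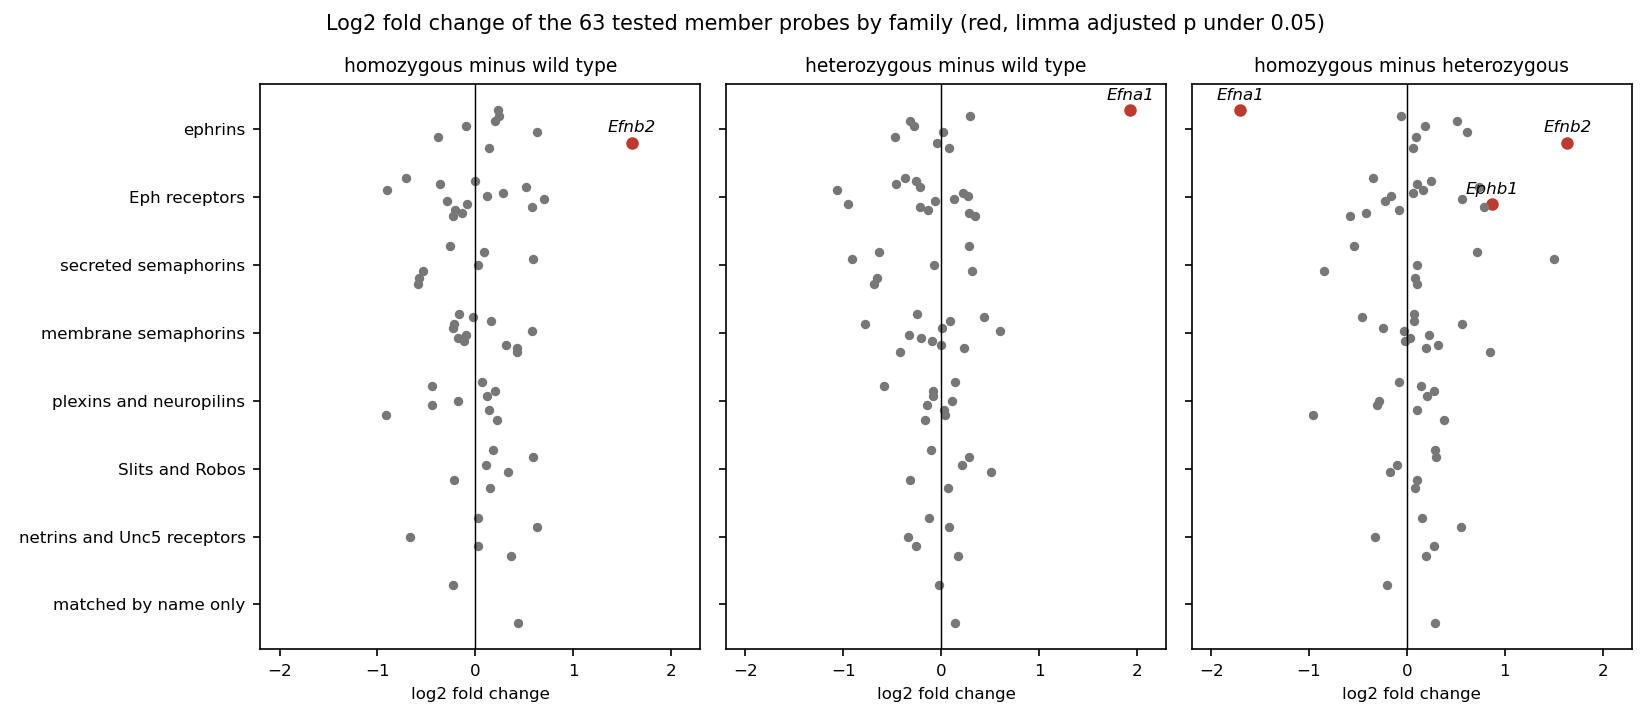
Log2 fold changes (x axis) of the 63 tested member probes, grouped by family (rows), in the 3 comparisons; each point is 1 gene and red marks a limma adjusted p under 0.05. Efnb2 stands to the right of its family in both comparisons of homozygous arrays, Efna1 is apart in both comparisons of heterozygous arrays, and most other genes lie within 1 log2 unit of 0.

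As a group the members were centred near 0. Their median log2 fold change was 0.03 between homozygous and wild type, -0.08 between heterozygous and wild type and 0.10 between homozygous and heterozygous, beside 0.02, -0.01 and 0.04 over all tested probes. Quantile normalization gave 0.00 for the last of these, and without wild-type array 1 the first was -0.069. The ligands alone had medians of 0.06, -0.06 and 0.10 and the receptors alone 0.03, -0.08 and 0.11, in the same order of comparisons. Both homozygous arrays lay above both wild-type arrays for 14 members (22.2%, against 25.7% of all probes) and below them for 15 (23.8%, against 24.8%). Both heterozygous arrays lay above both wild-type arrays for 8 members (12.7%, against 21%) and below for 18 (28.6%, against 24.5%). For homozygous against heterozygous the counts were 19 above (30.2%, against 28.7%) and 13 below (20.6%, against 25.9%). Set against all 4 other arrays, both homozygous arrays were highest for 10 members (15.9%, against 16.2% of all probes) and lowest for 6 (9.52%, against 13.2%). Both heterozygous arrays were highest for 3 (4.76%, against 11.1%) and lowest for 7 (11.1%, against 10.7%). Both wild-type arrays were highest for 11 (17.5%, against 12.2%) and lowest for 5 (7.94%, against 9.74%).

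Of the 8 ephrins, Efnb2 and Efna1 passed the test. Efnb2 encodes a transmembrane ephrin that binds B-class Eph receptors and, in the vasculature, marks arteries. It read 52.6 and 66.1 in homozygous arrays, 17.3 and 20.7 in heterozygous arrays and 20.8 and 18.3 in wild-type arrays. The homozygous arrays stood above the other 4, which overlapped each other. Only the homozygous arrays exceeded the background level, by little on array 1 (52.6 against a level of 51.3) and by more on array 2 (66.1 against 56.5). Efnb2 rose by 1.60 ± 0.19 on the log2 scale in homozygous against wild type (SE of the limma fit, n = 2 arrays each, limma adjusted p = 0.028) and by 1.64 ± 0.19 in homozygous against heterozygous (limma adjusted p = 0.0143). Between heterozygous and wild type its log2 fold change was -0.04, with a 95% interval from -0.50 to 0.41. The arrays of both other labels were dim, so with these set at the background level the difference of Efnb2 was at least 1.07-fold against wild type and at least 1.13-fold against heterozygous. The limma call against wild type was lost without homozygous array 1 (adjusted p = 0.152) or 2 (0.217), either heterozygous array (0.0608), or wild-type array 1 (0.0896) or 2 (0.0595), with a range of 0.0018 to 0.217 over all alternatives. That against heterozygous was lost without homozygous array 1 (limma adjusted p = 0.086) or 2 (0.133) or heterozygous array 1 (0.081) or 2 (0.0723), with a range of 0.00092 to 0.133.

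Efna1 encodes a GPI-anchored ephrin that binds A-class Eph receptors such as EphA2. It read 15.1 and 12.9 in homozygous arrays, 51.4 and 40.2 in heterozygous arrays and 12.7 and 11.2 in wild-type arrays. Here the heterozygous arrays stood alone, above the other 4. Efna1 was higher by 1.93 ± 0.19 on the log2 scale in heterozygous against wild type (limma adjusted p = 0.0148, n = 2 arrays each) and fell by 1.70 ± 0.19 in homozygous against heterozygous (limma adjusted p = 0.0136). Between homozygous and wild type the log2 fold change was 0.23, with a 95% interval from -0.23 to 0.68. The probe was dim on all 6 arrays, so no bound of the fold can be given, and the alternative without dim probes gave no value. The size of the fold depends on the unknown background: with a pseudocount of 16 the changes were 1.14 and -1.04. The limma call against wild type was lost without either homozygous array (adjusted p = 0.0647), heterozygous array 1 (0.0855) or 2 (0.0691) or wild-type array 1 (0.0767), with a range of 0.00091 to 0.0855 over all alternatives. That of homozygous against heterozygous was lost without homozygous array 1 (limma adjusted p = 0.0914) or 2 (0.133) or heterozygous array 1 (0.0715) or 2 (0.0572), with a range of 0.0011 to 0.133.

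The genomic stretches just upstream of the annotated starts of the 3 members past the threshold in any comparison are shown here. Each is the 250 bases before the start, from RefSeq on build GRCm38.p6, written 5′ to 3′ on the gene's own strand, which is the minus strand for all of them. Efnb2 is at chr8:8661243-8661492, Ephb1 at chr9:102354694-102354943, and the pair of Efna1 starts at chr3:89280952-89281201 (window 1) and chr3:89279646-89279895 (window 2). Capitals mark CCAAT and GGGCGG on either strand, motifs chosen after the values were seen.
Efnb2: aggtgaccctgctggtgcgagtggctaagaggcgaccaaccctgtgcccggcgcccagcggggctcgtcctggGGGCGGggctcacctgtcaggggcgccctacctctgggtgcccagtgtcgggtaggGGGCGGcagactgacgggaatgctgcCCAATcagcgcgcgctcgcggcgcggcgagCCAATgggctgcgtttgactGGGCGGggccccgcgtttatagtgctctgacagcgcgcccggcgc
Ephb1: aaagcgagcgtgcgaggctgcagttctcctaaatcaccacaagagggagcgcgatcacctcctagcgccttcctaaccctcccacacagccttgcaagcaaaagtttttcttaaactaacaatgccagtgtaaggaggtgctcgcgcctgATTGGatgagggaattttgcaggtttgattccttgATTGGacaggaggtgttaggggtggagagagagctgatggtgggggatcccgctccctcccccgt
Efna1 window 1: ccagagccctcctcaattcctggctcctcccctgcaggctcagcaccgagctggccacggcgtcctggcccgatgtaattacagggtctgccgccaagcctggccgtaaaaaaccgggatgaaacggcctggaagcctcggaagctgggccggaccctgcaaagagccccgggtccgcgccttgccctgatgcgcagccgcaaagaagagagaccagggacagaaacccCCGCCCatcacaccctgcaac
Efna1 window 2: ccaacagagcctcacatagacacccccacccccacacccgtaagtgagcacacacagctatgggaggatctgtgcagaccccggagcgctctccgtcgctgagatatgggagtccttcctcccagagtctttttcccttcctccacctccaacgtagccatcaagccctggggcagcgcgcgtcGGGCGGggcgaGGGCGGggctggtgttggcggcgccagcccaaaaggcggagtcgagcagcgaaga
Efnb2 held 2 CCAAT and 3 GGGCGG matches, Ephb1 2 and 0, and the Efna1 windows 0 CCAAT with 1 and 2 GGGCGG matches. Of 32851 windows of the same length in the RefSeq table, 33.8% held CCAAT and 32.7% held GGGCGG. A match describes the letters of a window and no binding was measured.

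The other 6 ephrins did not pass in any comparison. Efna4, a GPI-anchored ephrin, was the only one above background on all 6 arrays, at 65.7 and 78.8 in homozygous arrays, 68.2 and 58.8 in heterozygous arrays and 75.9 and 77.6 in wild-type arrays. Its homozygous arrays overlapped those of both other labels, and its log2 fold change between heterozygous and wild type was -0.28 ± 0.17 (limma adjusted p = 0.485). Efna5, a GPI-anchored ephrin that shapes topographic maps, read 5.6 and 4.8 in homozygous, 3.1 and 3.7 in heterozygous and 2.6 and 4.3 in wild-type arrays, all dim. Efna2, Efna3, Efnb1 and Efnb3 were dim on all arrays and read between 11.1 and 39.0. Of 8 ephrins, 6 had a log2 fold change above 0 between homozygous and wild type, 4 between heterozygous and wild type and 6 between homozygous and heterozygous.

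**Figure D2:**
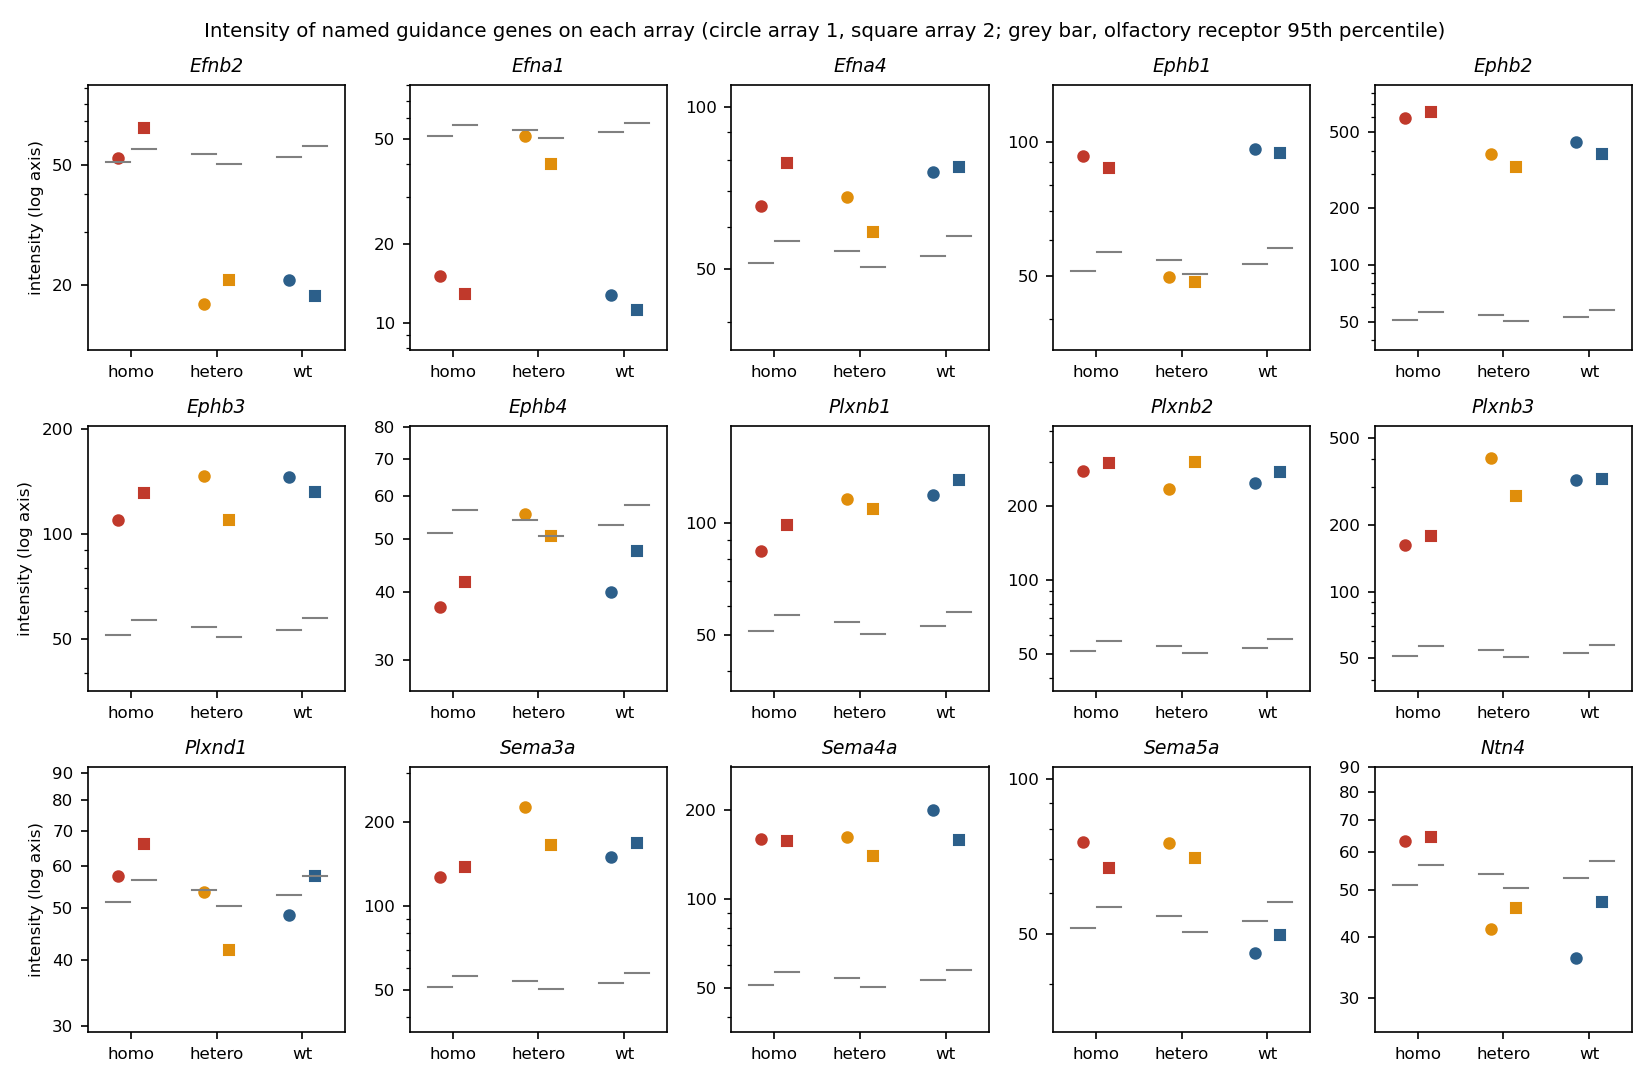
Intensity (log y axis, a scale of its own in each panel) of 15 guidance genes on each array, with homozygous, heterozygous and wild-type arrays from left to right, circles for array 1, squares for array 2 and grey bars for each array's background level. Efnb2 is raised in both homozygous arrays, Efna1 in both heterozygous arrays, Ephb1 is lowered in both heterozygous arrays, and Plxnb3 is lowered in both homozygous arrays.

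Among the 14 Eph receptors, only B-class probes exceeded the background level. Ephb1, a receptor for ephrin-B ligands, read 93.0 and 87.1 in homozygous arrays, 49.7 and 48.5 in heterozygous arrays and 96.1 and 94.3 in wild-type arrays. The heterozygous arrays stood apart, below background, while the other 4 were above it. Ephb1 was higher by 0.87 ± 0.14 on the log2 scale in homozygous against heterozygous (limma adjusted p = 0.0367, n = 2 arrays each), and at least 1.72-fold higher with the heterozygous arrays set at the background level. In heterozygous against wild type the log2 fold change was -0.96 ± 0.14, and wild type read at least 1.82-fold higher, with a limma adjusted p of 0.0515 that missed the threshold. Its unadjusted p there (0.000411) was below that of the comparison that passed (0.000672), in which more of all probes passed. The heterozygous against wild type difference passed with a pseudocount of 16 (limma adjusted p = 0.00914), without dim probes (0.00705), with median centring (0.0493), quantile normalization (0.0498) or an intensity trend (0.00769), in a range of 0.00705 to 0.289 over all alternatives. The limma call of homozygous against heterozygous was lost without homozygous array 1 (adjusted p = 0.235) or 2 (0.224), heterozygous array 1 (0.147) or 2 (0.19), with the replicate block (0.0859) or with blank cells filled (0.0602), in a range of 0.0052 to 0.235. Between homozygous and wild type Ephb1 gave -0.08, with a 95% interval from -0.42 to 0.26.

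Ephb2, a B-class receptor with roles in progenitor zones and synapses, read 594.6 and 636.6 in homozygous arrays, 384.8 and 329.0 in heterozygous arrays and 442.3 and 385.5 in wild-type arrays. Both homozygous arrays lay above the other 4 and both heterozygous arrays below them. The log2 fold change was 0.58 ± 0.16 in homozygous against wild type (limma adjusted p = 0.156) and 0.79 ± 0.16 in homozygous against heterozygous (0.0685), and neither passed. Both passed in the limma fit with a pseudocount of 16 (adjusted p = 0.041 and 0.013), without dim probes (0.0469 and 0.015) and with an intensity trend (0.0448 and 0.00886), in ranges of 0.041 to 0.478 and 0.00886 to 0.362 over all alternatives. With quantile normalization the second passed as well (0.05, just under the threshold).

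Ephb3, a further ephrin-B receptor, read 109.6 and 131.5 in homozygous, 146.4 and 109.7 in heterozygous and 146.3 and 131.8 in wild-type arrays. Its labels could not be separated, with limma adjusted p of 0.602, 0.777 and 0.875 in homozygous against wild type, heterozygous against wild type and homozygous against heterozygous. Ephb4, the receptor that marks veins and pairs with ephrin-B2 in vessels, read 37.5 and 41.7 in homozygous, 55.4 and 50.6 in heterozygous and 39.9 and 47.5 in wild-type arrays. Only its heterozygous arrays reached the background level, and its log2 fold change of -0.42 ± 0.16 in homozygous against heterozygous did not pass (limma adjusted p = 0.253). The 9 A-class receptor probes and Ephb6 were dim on all 6 arrays. Among them Epha4, a receptor that binds ephrins of both classes, read 12.9 and 11.8 in homozygous, 14.6 and 8.3 in heterozygous and 26.7 and 19.8 in wild-type arrays, with both wild-type arrays above the other 4. Epha4 gave log2 fold changes of -0.90 in homozygous and -1.06 in heterozygous, each against wild type, and neither passed (limma adjusted p = 0.191 and 0.242). Epha3, at 12.4 and 23.7 in homozygous arrays, 13.1 and 8.1 in heterozygous arrays and 7.5 and 19.2 in wild-type arrays, had the largest standard error of all tested members, 0.52.

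**Figure D3:**
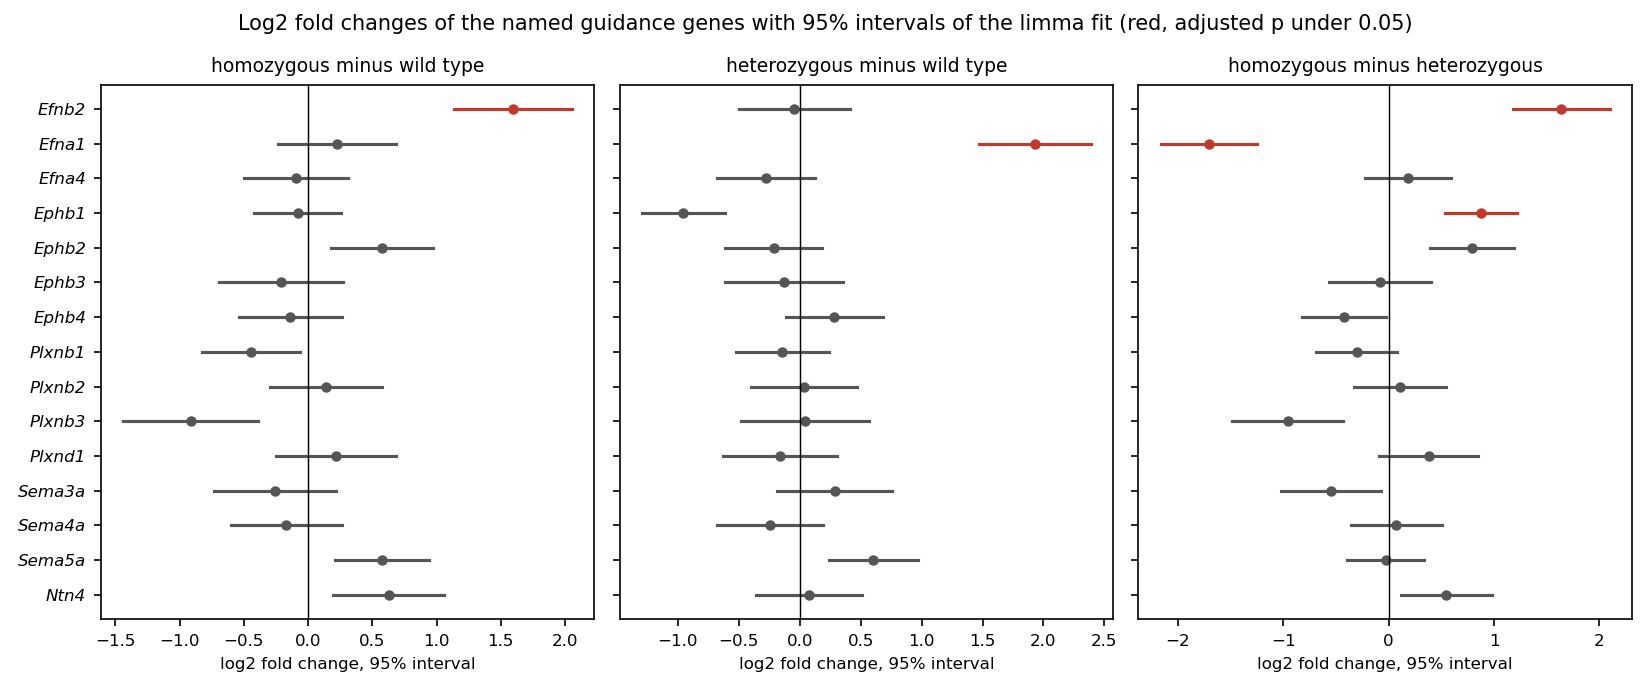
Log2 fold changes (points) with 95% intervals of the limma fit (lines) for 15 guidance genes (rows) in the 3 comparisons, with an x scale of its own in each panel; red marks an adjusted p under 0.05. The intervals of Ephb2, Plxnb1, Plxnb3, Sema5a and Ntn4 do not reach 0 between homozygous and wild type, although none of these passed after adjustment over all probes.

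No semaphorin passed in any comparison. Sema3a, a secreted repellent that acts through Nrp1 and A-class plexins, read 127.7 and 137.9 in homozygous arrays, 226.0 and 165.7 in heterozygous arrays and 149.7 and 168.2 in wild-type arrays. Both homozygous arrays lay below the other 4. Its log2 fold change was -0.26 ± 0.20 in homozygous against wild type (limma adjusted p = 0.507) and -0.54 ± 0.20 in homozygous against heterozygous (0.219). The remaining 6 class 3 genes were dim on all arrays. Sema3c, a secreted semaphorin of this class, had the largest difference among them, at 8.6 and 9.3 in homozygous, 2.5 and 4.0 in heterozygous and 8.4 and 4.2 in wild-type arrays, with a log2 fold change of 1.5 in homozygous against heterozygous (limma adjusted p = 0.104). Sema3f, a repellent that acts mainly through neuropilin-2, read 18.3 and 22.9 in homozygous, 23.5 and 16 in heterozygous and 30.6 and 30.3 in wild-type arrays.

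Of 13 membrane-bound semaphorins, Sema4a exceeded the background level on all arrays and Sema5a on 4. Sema4a, a transmembrane semaphorin, read 159.6 and 157.3 in homozygous arrays, 162.0 and 139.9 in heterozygous arrays and 200.9 and 158.3 in wild-type arrays, and its labels overlapped. Sema5a, a transmembrane semaphorin with thrombospondin repeats, read 75.6 and 67.1 in homozygous arrays, 75 and 70.3 in heterozygous arrays and 45.9 and 49.7 in wild-type arrays. Both wild-type arrays were dim and the other 4 above background. The log2 fold change of Sema5a was 0.58 ± 0.15 in homozygous and 0.60 ± 0.15 in heterozygous, each against the same wild-type arrays, and neither passed (limma adjusted p = 0.135 and 0.203). With the wild-type arrays set at the background level these were at least 1.29-fold and 1.31-fold. The first passed in the limma fit with a pseudocount of 16 (adjusted p = 0.0436) or without dim probes (0.0364), in a range of 0.0364 to 0.489. The class 6 gene Sema6d, a transmembrane ligand of A-class plexins, read 40.3 and 34.2 in homozygous, 32.1 and 32.9 in heterozygous and 28.8 and 26.4 in wild-type arrays, dim throughout but without overlap among the 3 labels.

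Of the semaphorin receptors, the B-class plexins were above background on all 6 arrays. Plxnb3, a plexin known from oligodendrocytes and reported as a receptor for Sema5A, read 162.6 and 179.8 in homozygous arrays, 405.3 and 271.7 in heterozygous arrays and 320.6 and 323.8 in wild-type arrays. Both homozygous arrays lay well below the other 4. The log2 fold change of Plxnb3 was -0.91 ± 0.22 in homozygous against wild type (limma adjusted p = 0.117) and -0.96 ± 0.22 in homozygous against heterozygous (0.0868), and neither passed. Both passed in the limma fit with a pseudocount of 16 (adjusted p = 0.0369 and 0.0281), without dim probes (0.0303 and 0.0232) or with an intensity trend (0.0201 and 0.0122), and the second with median centring (0.0465). Over all alternatives the ranges were 0.0201 to 0.441 and 0.0122 to 0.353. Summed oligodendrocyte lineage markers (6 probes, of which none passed) read 13448 and 11208 in homozygous, 11131 and 12973 in heterozygous and 9768 and 10270 in wild-type arrays. Olig1 made up most of each sum, and 4 of the 6 probes (Olig2, Sox10, Cspg4 and Mbp) had a log2 fold change below 0 in homozygous against wild type. The part of this list in the Plxnb3 values was not tested.

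Plxnb1, a receptor for Sema4D, read 84.3 and 98.5 in homozygous arrays, 115.9 and 109.1 in heterozygous arrays and 118.4 and 130.2 in wild-type arrays. The 3 labels did not overlap, but the log2 fold change in homozygous against wild type, -0.45 ± 0.16, did not pass (limma adjusted p = 0.211). Plxnb2, a B-class plexin of proliferating neural progenitors, read 275.1 and 298.2 in homozygous, 234.1 and 301.5 in heterozygous and 246.6 and 273.5 in wild-type arrays, a 95% interval from -0.29 to 0.58 for homozygous against wild type. Plxnd1, the receptor of Sema3E, read 57.4 and 66.0 in homozygous, 53.6 and 41.7 in heterozygous and 48.6 and 57.6 in wild-type arrays, and its log2 fold change of 0.38 ± 0.19 in homozygous against heterozygous did not pass (limma adjusted p = 0.364). The co-receptor gene Nrp1 and the A-class plexin genes Plxna1, Plxna3 and Plxna4 were dim on all arrays. Plxna2 exceeded the level on 2 arrays, and Nrp1 read 49.5 and 42.3 in homozygous, 50.1 and 46.7 in heterozygous and 37.7 and 50.7 in wild-type arrays.

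Netrins, Unc5 receptors, Slits and Robos gave no call. Ntn4, a secreted netrin of basement membranes related to laminin chains, read 63.4 and 64.5 in homozygous arrays, 41.6 and 45.9 in heterozygous arrays and 36.3 and 47.3 in wild-type arrays. Only its homozygous arrays exceeded the background level, and they lay above the other 4. Its log2 fold change was 0.63 ± 0.18 in homozygous against wild type (limma adjusted p = 0.158) and 0.55 ± 0.18 in homozygous against heterozygous (0.184), at least 1.16-fold and 1.22-fold with the dim arrays at the background level. The first passed in the limma fit without dim probes (adjusted p = 0.0491) and under no other alternative. That filter kept Ntn4 only through its homozygous arrays, the higher label, so this pass is no separate support. Ntn1, the classical floor plate netrin, was close to the lowest signals, between 3.3 and 4.9. Unc5a, a repellent netrin receptor, read 33.2 and 36.7 in homozygous, 42.5 and 45.3 in heterozygous and 57.6 and 53.3 in wild-type arrays, with no overlap among the 3 labels and only wild-type array 1 above background. It gave -0.67 in homozygous against wild type (limma adjusted p = 0.106). Slit1, Slit2, Slit3, Robo1, Robo2, Robo3 and Robo4 were dim on every array that measured them, reading at most 23.5.

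Unc50, a Golgi membrane protein gene caught by the name rule, read 1225 and 1198 in homozygous, 1377 and 1417 in heterozygous and 1448 and 1385 in wild-type arrays. Leaving it and Unc5cl out changed no count of calls.

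Genes of the same pathways outside the name rule were read from a list of 57 further ligands, co-receptors and cytoplasmic transducers, of which 51 were tested. Of these, 0 rose and 2 fell in homozygous against wild type, where 0.92% of all probes passed. In heterozygous against wild type 1 rose and 0 fell, beside 0.749% of all probes, and in homozygous against heterozygous 0 rose and 2 fell, beside 2.69%. The 2 that fell were the same genes in both comparisons of homozygous arrays, which share those arrays. Mical1, an actin-oxidising enzyme that acts downstream of plexins, read 7.7 and 6.0 in homozygous arrays, 37.0 and 25.9 in heterozygous arrays and 50.7 and 53.7 in wild-type arrays. Its 3 labels did not overlap, on a dim probe. Mical1 fell by 2.94 ± 0.23 on the log2 scale against wild type (limma adjusted p = 0.00779) and fell by 2.19 ± 0.23 against heterozygous (0.0113). These sizes depend on the unknown background, and with a pseudocount of 16 the log2 fold changes were -1.58 and -1.05. Draxin, a secreted guidance protein that binds netrin and Dcc, read 5.2 and 5.2 in homozygous arrays, 26.2 and 26.1 in heterozygous arrays and 12.4 and 19.9 in wild-type arrays. It too was lowest in homozygous arrays on a dim probe, and fell by 1.59 ± 0.24 against wild type (limma adjusted p = 0.0482) and fell by 2.33 ± 0.24 against heterozygous (0.0112). With a pseudocount of 16 the log2 fold changes of Draxin were -0.59 and -0.99.

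Pak3, a kinase activated by Rac and Cdc42, read 206.7 and 197.1 in homozygous arrays, 387.4 and 283.7 in heterozygous arrays and 80.4 and 111.4 in wild-type arrays. It was above background on all arrays, without overlap among the 3 labels. Pak3 rose by 1.81 ± 0.23 in heterozygous against wild type (limma adjusted p = 0.0325). In homozygous against wild type it gave 1.09 ± 0.23, which did not pass (0.0946). The netrin receptor genes Dcc and Neo1 did not pass: Dcc was dim, between 2.7 and 6.2, and Neo1 read between 68.9 and 97.3, above background on all arrays.

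Each call of these pathway genes was lost when some single arrays were left out. The labels compared did not overlap, so leaving out 1 array could not reverse a direction. Mical1 and Draxin were dim on all arrays and had no value in the alternative without dim probes. In homozygous against wild type, neither Mical1 nor Draxin passed without homozygous array 1 or 2; Mical1 was also lost without wild-type array 1 (limma adjusted p = 0.0612) and Draxin without heterozygous array 1 or 2 (0.103), in ranges of 0.0001 to 0.113 and 0.0072 to 0.292 over all alternatives. In homozygous against heterozygous, Draxin was lost without any homozygous or heterozygous array (0.0648 to 0.107) and Mical1 without homozygous array 1 or 2 or heterozygous array 1 (0.0563 to 0.107). Pak3 was lost without any array other than wild-type array 2 (0.105 to 0.145). The homozygous values without array 1 and array 2 were 0.0845 and 0.113 for Mical1 and 0.292 and 0.278 for Draxin, against wild type.

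**Figure D4:**
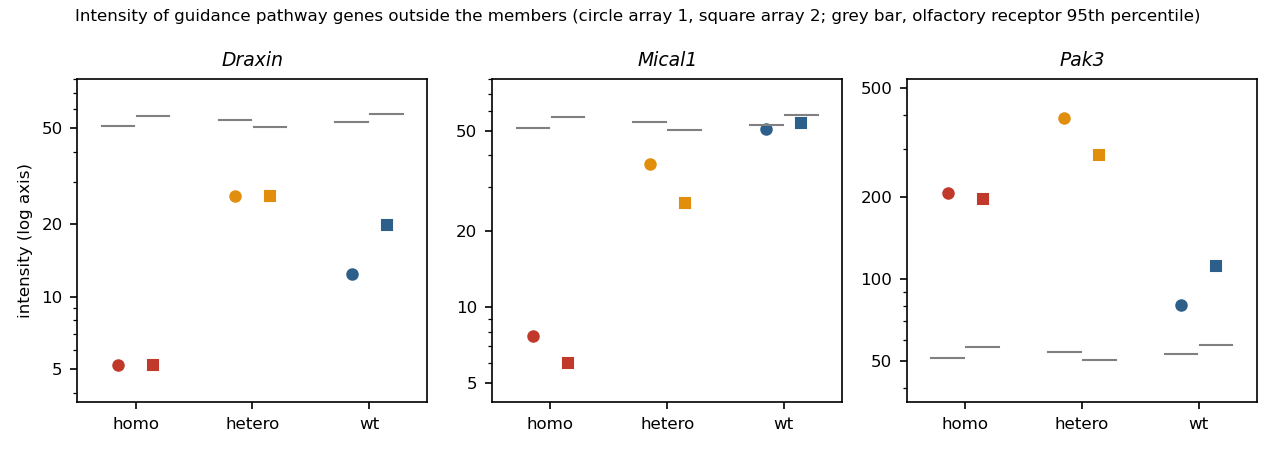
Intensity (log y axis, a scale of its own in each panel) of Draxin, Mical1 and Pak3 on each array, with homozygous, heterozygous and wild-type arrays from left to right, circles for array 1, squares for array 2 and grey bars for the background level. Draxin and Mical1 are lowest in both homozygous arrays and dim on all arrays, and Pak3 is lowest in both wild-type arrays.

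Of the stem or progenitor markers, only Notch1 passed, in homozygous against heterozygous (log2 fold change -0.81, limma adjusted p = 0.045). Markers of other cell types differed between labels too. The neuron list (9 probes, 7 of them dim on all arrays) summed to 5280 and 5210 in homozygous, 4052 and 5382 in heterozygous and 2050 and 2035 in wild-type arrays, mostly through Gap43. Gap43 and Elavl4 rose in homozygous against wild type. Gap43 rose in heterozygous against wild type as well (limma adjusted p = 0.0464), and Elavl4 in homozygous against heterozygous (0.0305). The 7 dim neuron probes passed in no comparison, and 3 of them, Elavl3, Stmn2 and Tubb3, had a log2 fold change below 0 in homozygous against wild type. The astrocyte list (6 probes, 3 dim on all arrays, among them Gfap) summed to 2188 and 2007 in homozygous, 3402 and 3356 in heterozygous and 1553 and 2137 in wild-type arrays, mostly through Gja1. This sum was highest in the heterozygous arrays. For Gja1, S100b, Aldh1l1 and Aqp4 both heterozygous arrays lay above those of both other labels, while Gfap and Slc1a2 overlapped between all labels. Of this list only Aqp4 passed, as lower in homozygous against heterozygous (limma adjusted p = 0.0333). The mural or fibroblast list (7 probes, 6 dim on all arrays) summed to 191.7 and 220.2 in homozygous, 394.6 and 387.6 in heterozygous and 1336 and 1050 in wild-type arrays, mostly through Acta2. Acta2 fell in homozygous against wild type (limma adjusted p = 0.00583), in heterozygous against wild type (0.0264) and in homozygous against heterozygous (0.0325). The part of these lists in the changes above was not tested. The endothelial markers Kdr and Tie1, the 2 with a value on all arrays, were dim on all 6 and summed to 20.7 and 28.4 in homozygous, 23.9 and 17.0 in heterozygous and 32.3 and 30.3 in wild-type arrays. Their part in the Efnb2 values was not tested. Of 5 microglia markers 0 exceeded the background level on all arrays; P2ry12, dim on all 6, rose in homozygous against both other labels and read 12.4 and 10.6 in homozygous, 3.1 and 4.5 in heterozygous and 3.0 and 2.8 in wild-type arrays. Cx3cr1, also dim, fell in heterozygous against wild type (log2 fold change -1.30, limma adjusted p = 0.0374), and Aif1, Cd68 and Csf1r passed in no comparison.

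**Figure D5:**
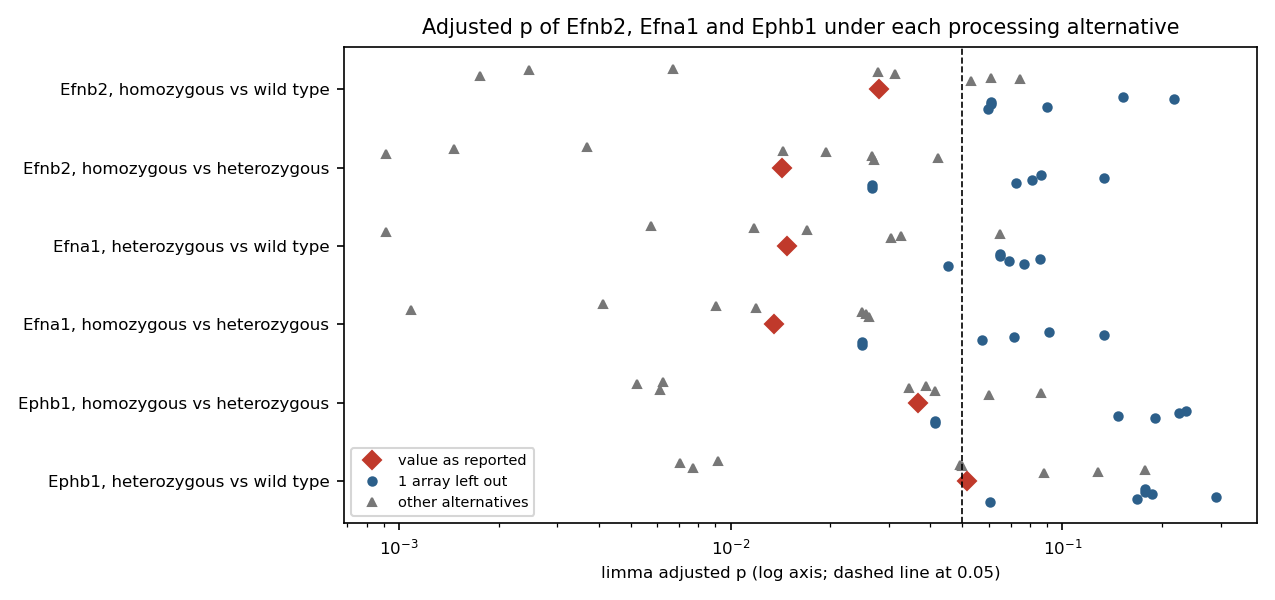
Limma adjusted p (log x axis, dashed line at the threshold of 0.05) of Efnb2, Efna1 and Ephb1 in the comparisons named in the rows; the diamond is the value as reported, circles leave out 1 array and triangles are the other alternatives. Circles lie on both sides of the line for each comparison that passed except Efnb2 in homozygous against wild type, where all lie above 0.05.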

How the data were processed

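The deposited table holds linear intensity from 1-colour arrays, in 1 column for each of 6 arrays. Since the median of every column is 30, the values were read as scaled by the authors; the sources used here give neither the background correction nor the rule for blank cells. Per the labels' protocols, a dye was coupled to RNA amplified with amino allyl groups, while the label field gives biotin; this disagreement is unresolved. The number of arrays limits the precision.

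Intensities were log2-transformed without a pseudocount, and limma 3.58.1 (R 4.3.3) was fitted to 20434 of 23466 probes, those measured on all 6 arrays, with 1 coefficient per genotype. The fit had 3 residual degrees of freedom, to which the empirical Bayes prior added 3.27. Tests were two-sided and adjusted over all tested probes by the Benjamini-Hochberg method. Errors are standard errors of the fit. Where both arrays of the lower label were dim and both of the higher label were not, a bound of the fold was taken between geometric means, with each dim array at its background level. The bound makes no allowance for the spread between arrays.

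The members and lists were chosen with earlier results of these data known. Named genes were Ecrg4, members that passed, the 8 largest differences per comparison among non-overlapping members whose brighter label exceeded the background level on both arrays, members above it on all 6 arrays, and pathway genes that passed; other genes were chosen after their values were seen. Gene symbols came from the platform annotation, in which 16625 probes had 1 symbol and 0 had several; pathway genes and markers were matched after updating symbols through a RefSeq table of GRCm38.p6. Promoter windows were found for 57 of the 66 members. The fit was tested on simulated data. Alternatives changed the pseudocount, dim probe filter, scaling, variance prior, arrays fitted, replicate block, blank cells, arrays left out and member names. The dim probe filter kept probes above the background level on both arrays of at least 1 label. A probe dim in the lower label can thus be kept through its higher label, and a pass under this filter is then no separate support. Arrays share numbers 1 and 2 across labels. Deviations of same-numbered arrays from their label means correlated at 0.010 (homozygous and wild type), 0.016 (heterozygous and wild type) and -0.076 (homozygous and heterozygous), so the numbers were not taken as pairs.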

Additional observations from a re-analysis of the deposited data

How the results depend on the processing

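The alternatives were recomputed for 29 results of 1 gene in 1 comparison, and other gene values in the report were not recomputed. None of the 29 changed direction, but the labels compared did not overlap in any of them. Leaving out 1 array or adding a pseudocount therefore could not reverse a direction. The dim probe filter, variance prior, arrays compared, replicate block and blank cells left these fold changes as they were. Only the scaling alternatives could have reversed one. Of the 400 values, 324 kept their side of the threshold, 54 lost a call and 22 gained one. Of the 63 tested members, 46 were dim on all arrays, and the part of low signal in these values was not tested. The causes of the moves below were not tested, except that fewer arrays leave fewer degrees of freedom. The dim probe filter also took Efna1, Mical1 and Draxin out of the fit, so it gave no value for them. The alternative without Unc50 and Unc5cl was chosen after seeing the data.

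Members passing in homozygous against wild type numbered 5 with a pseudocount of 16, 5 without dim probes, 4 with an intensity trend and 0 with only the arrays compared, with the replicate block or with blank cells filled, and 0 to 0 without 1 array. In heterozygous against wild type they were 2 with a pseudocount of 16, median centring, quantile normalization or a trend, 0 with only the arrays compared and 0 to 2 without 1 array. In homozygous against heterozygous they were 5 with a pseudocount, 6 with a trend and 0 to 3 without 1 array. The members' median was -0.093 in homozygous against wild type without dim probes and -0.069 to 0.083 without 1 array, -0.13 to -0.01 in heterozygous against wild type without 1 array, and -0.0035 in homozygous against heterozygous with quantile normalization and 0.03 to 0.15 without 1 array.

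Pathway genes passing numbered, in homozygous against wild type, 5 with a pseudocount or a trend, 1 with only the arrays compared, the replicate block or blank cells filled, and 0 to 2 without 1 array. In heterozygous against wild type they were 2 with a trend, 0 with only the arrays compared, the block or blank cells filled, and 0 to 1 without 1 array. In homozygous against heterozygous they were 0 without dim probes, since that filter removed Mical1 and Draxin, the genes that passed there. The calls lost without 1 array are given with these genes above.

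Over all probes, homozygous against wild type gave 188 calls, and 1143 with a pseudocount, 875 without dim probes, 314 with median centring, 328 with quantile normalization, 1094 with a trend, 59 with only the arrays compared, 47 with the replicate block, 88 with blank cells filled and 1 to 224 without 1 array. Heterozygous against wild type gave 153, and 306 with a pseudocount, 400 with a trend, 40 with only the arrays compared, 51 with the block and 18 to 340 without 1 array. Homozygous against heterozygous gave 549, and 1376, 998, 1357, 244 and 320 with a pseudocount, without dim probes, with a trend, with the block and with blank cells filled, and 6 to 680 without 1 array.

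The Ecrg4 log2 fold change of 1.44 in heterozygous against wild type kept its size but lost its call with only the arrays compared (limma adjusted p = 0.136), with the replicate block (0.086) and with blank cells filled (0.0695), and was 1.21 to 1.67 without 1 array (0.0437 to 0.225). In homozygous arrays its call was kept under each alternative, at -8.11 to -8.00 against heterozygous and -6.84 to -6.39 against wild type without 1 array, but its size was -4.44 and -3.10 with a pseudocount of 16, since the homozygous readings lie near the lowest values. The replicate block changed no call of a member beyond Efnb2 in homozygous against wild type (limma adjusted p = 0.0747) and Ephb1 in homozygous against heterozygous.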

Other observations

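A further netrin and neuropilin gene is annotated under an older symbol and so lies outside the name rule. Ntn3, listed as Ntn2l, read 5.5 and 5.8 in homozygous arrays, 5.0 and 3.5 in heterozygous arrays and 5.2 and 5.6 in wild-type arrays. Nrp2, the co-receptor for Sema3F, listed as Npn2, read 8.0 and 11.6 in homozygous arrays, 8.8 and 6.9 in heterozygous arrays and 7.8 and 9.6 in wild-type arrays. Both were dim on all arrays and neither passed (lowest limma adjusted p = 0.331 for Ntn3 and 0.56 for Nrp2).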
